A study of Rattus norvegicus with 7 samples.

Results

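Nuclei of the convoluted proximal tubule, the stretch of the nephron that directly follows the glomerulus, were picked from single-nucleus RNA libraries of rat kidney by the transcripts they held. A nucleus entered when it had 1000 to 10000 UMIs (unique molecular identifiers, each 1 captured RNA molecule), 200 or more genes and no more than 5% mitochondrial UMIs. Per 10000 UMIs it also had to hold at least 200 of Slc34a1, at least 25 of Slc5a12 and Slc4a4 together, under 20 of Slc7a13 and under 40 of Slc12a1. The levels of these 5 genes chose the nuclei, and they are given below as a description. The rule found 2954 nuclei among 24411 that met the limits on UMIs, genes and mitochondrial share (12.1%), out of 37048 deposited barcodes.

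The tissue was archived kidney of HSRA rats aged 4 weeks, a model of nephron deficit and chronic kidney disease. By their titles 3 libraries are 1-kidney and 4 are 2-kidney libraries, and the labels name 3 animals HSRA-S and 4 animals HSRA-C without saying which library is which. Nuclei were prepared from a central piece of the kidney with both cortex and medulla, and run on the 10x Genomics 3' chemistry, version 3.1. No treatment is named, all animals share the age, and the sources used here give neither the sex of the animals nor the share of cortex in each piece. Each library was taken as 1 animal, and the question of the comparison is how kidneys of 1-kidney animals differ from those of 2-kidney animals.

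The convoluted proximal tubule takes back most of what the glomerulus filters. Sodium-coupled carriers of the brush border bring in phosphate, glucose, amino acids and lactate, the bicarbonate carrier Slc4a4 lets bicarbonate out at the basolateral side, and the receptors megalin and cubilin take up filtered protein. The straight part further down carries a different set of transporters, among them Slc7a13, and when nephrons are lost the proximal tubules that remain are known to enlarge.

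The 1-kidney replicates 1 to 3 gave 343, 559 and 413 convoluted nuclei, and the 2-kidney replicates 1 to 4 gave 172, 443, 537 and 487. Their summed UMIs ran from 797888 to 2432719 per library and the median nucleus held 3085 to 4334 UMIs. Library names carry a set code, P1117B in 2-kidney replicates 3 and 4 and P1117 in the other 5 libraries, and no source used here says what it means. The 2 libraries of set P1117B stood apart in Slc34a1, at 263 and 269 per 10000 UMIs over their convoluted nuclei beside 421 to 490 in the other 5 libraries, and in the median mitochondrial share, at 0.218% and 0.131% beside 0.422% to 1.17%. Set P1117B holds no 1-kidney library, so each comparison was repeated without it. Libraries shared 3 to 14 barcodes per pair over all deposited barcodes, and among convoluted nuclei 1 barcode was found in more than 1 library. Y-linked Kdm5d was counted in all 7 libraries (80.2 to 121 CPM).

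Convoluted nuclei made up 23.5%, 17.5% and 12.6% of the nuclei in the quality range in 1-kidney replicates 1 to 3. In 2-kidney replicates 1 to 4 they made up 5.86%, 12.0%, 11.3% and 9.56%. Every 1-kidney library lay above every 2-kidney library, the closest pair being 12.6% and 12.0%. The means were 17.9% ± 5.46 (SD, n = 3) and 9.68% ± 2.75 (SD, n = 4), a difference of 8.17 percentage points (two-sided exact permutation test, p = 0.0286, the smallest p that 3 against 4 libraries allow). Over the 5 measures tested this way, the share and 4 measures of depth, the adjusted p was 0.143, and the difference did not pass. That is the lowest value that 1 measure alone at the smallest p can reach among 5, so the correction could not decide.

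The difference in share depended on the denominator and the depth. Among nuclei with at least 200 Slc34a1 per 10000 UMIs, the convoluted share was 46.9%, 46.6% and 41.5% in the 1-kidney and 20.3%, 33.2%, 59.9% and 62.1% in the 2-kidney libraries, and the groups overlapped (difference 1.12 points, exact permutation p = 0.971). With each barcode thinned to 1000 UMIs the difference was 5.83 points (exact permutation p = 0.0571), and with the stricter limits of 300 for Slc34a1 and 40 for the pair it was 6.12 points (exact permutation p = 0.0857). Without set P1117B it was 8.91 points (exact permutation p = 0.2). It was 13.2 points from 2000 UMIs up and 3.46 points of all deposited barcodes (exact permutation p = 0.0286 for each). The share of cortex in the tissue and the share of convoluted tubule in the cortex cannot be told apart here.

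Measures of depth overlapped between the groups. The median convoluted nucleus held 3916 ± 280 UMIs in 1-kidney libraries beside 3692 ± 591 in 2-kidney libraries (SD, exact permutation p = 0.543), and the median number of genes was 2006 ± 81.3 and 1893 ± 238 (exact permutation p = 0.457). After thinning to 1000 UMIs, the median was 721, 731 and 724 genes in the 1-kidney and 725, 695, 723 and 725 in the 2-kidney libraries (exact permutation p = 0.571).

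**Figure D1:**
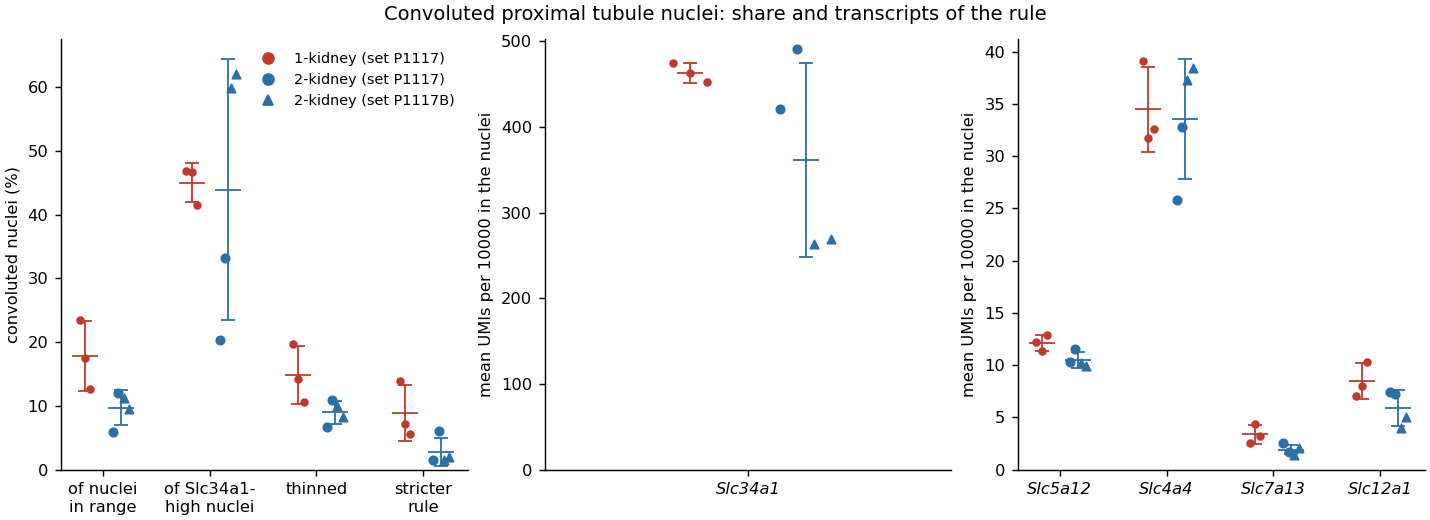
Left, convoluted nuclei as a percentage of nuclei in the quality range, of Slc34a1-high nuclei, after thinning and under the stricter rule; middle and right, mean UMIs of the 5 rule genes per 10000 UMIs of convoluted nuclei; points are libraries, bars are mean and SD (n = 3 and 4). The 3 1-kidney libraries lie above the 4 2-kidney libraries in the first column (12.6% to 23.5% beside 5.86% to 12.0%) but not among Slc34a1-high nuclei, and the 2 triangles of set P1117B lie low in Slc34a1 (263 and 269).

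Of the rule genes, Slc34a1, the main sodium phosphate carrier of the brush border, was at 475, 463 and 452 per 10000 UMIs in the convoluted nuclei of 1-kidney replicates 1 to 3 and at 421, 490, 263 and 269 in those of 2-kidney replicates 1 to 4. Many nuclei of set P1117B sat at the limit of 200. Between 200 and 220 there were 97 and 74 nuclei in 2-kidney replicates 3 and 4 and 4 to 11 in the other libraries, and just outside, between 180 and 200, there were 93 and 74 beside 6 to 14. The lactate carrier Slc5a12 was at 11.3 to 12.8 in the 1-kidney and 9.88 to 11.6 in the 2-kidney libraries, and Slc4a4 at 31.7 to 39.1 and 25.8 to 38.5. A UMI of Slc5a12 was seen in 83.4% to 93.2% of the convoluted nuclei of a library. Of the pair, 66 to 106 nuclei a library lay just inside the limit, at 25 to 30, in 5 of the 7 libraries, with 35 and 52 in 1-kidney replicate 1 and 2-kidney replicate 1.

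Free RNA was not subtracted, and Slc34a1 was counted in nuclei of other types too. In podocyte nuclei, taken as those with at least 20 UMIs of podocyte transcripts per 10000 and less Slc34a1 than the rule asks, Slc34a1 was at 9.97 to 48.9 per 10000, and in thick ascending limb nuclei (at least 40 of Slc12a1) it was at 46.0 to 89.2. Neither cell type is known to make this carrier. Medians were 1713 to 3689 UMIs per podocyte nucleus and 1429 to 2042 per thick limb nucleus.

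The label was checked against transcripts outside the rule. All 12 markers of the convoluted proximal tubule were counted in all 7 libraries, but most of their summed level is Slc34a1 itself. CPM are UMI counts scaled to a common library total. Among the others, the glucose carrier Slc5a2 averaged 484 CPM in these nuclei and 116 CPM in the other nuclei. Slc6a19 averaged 433 and 102 CPM, and Slc22a8 averaged 360 and 90.02 CPM. The other nuclei leave out straight nuclei, defined below, and nuclei that missed only the limit on the pair. Nuclei with proximal transcripts that missed another limit stay among them. Slc34a1 over the other nuclei was at 61.3 to 135 per 10000 UMIs. Podocyte markers summed to 0.540 to 2.24 per 10000 UMIs, beside 12.35 to 21.4 in the other nuclei. Fibroblast markers summed to 0.147 to 0.326 beside 0.211 to 1.10. Endothelial markers summed to 1.90 to 4.24 beside 3.78 to 6.78, and were close in 1-kidney replicate 1 (3.73 and 3.78). Immune markers summed to 0.326 to 0.953 beside 0.280 to 0.651. They were higher in convoluted than in the other nuclei in every library but 2-kidney replicate 4. Thick ascending limb markers summed to 10.2 to 14.7 in convoluted nuclei of the 1-kidney and 12.8 to 14.6 of the 2-kidney libraries. This sum joins genes of opposite direction. Slc12a1 of the rule was at 836 ± 165 and 606 ± 172 CPM (SD, n = 3 and 4). Cldn10, which is not specific to this limb, was at 292 ± 81.7 and 645 ± 140 CPM. Markers of the straight proximal tubule, which include Slc7a13 of the rule, summed to 26.5, 29.5 and 22.8 in the 1-kidney and 8.32 to 15.4 in the 2-kidney libraries, without overlap. Most of this sum is Slco1a6, Slc5a10 and Slc7a13. Distal convoluted tubule markers summed to 14.1 to 15.3 and 7.52 to 14.1, and include Trpm7, which is not specific (391 and 401 CPM). Connecting tubule markers summed to 10.7 to 14.2 in the 1-kidney and 4.90 to 8.79 in the 2-kidney libraries, also without overlap.

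Nuclei of the straight proximal tubule, 1927 in all, were taken as those with at least 40 Slc7a13, under 25 of the Slc5a12 and Slc4a4 pair and under 40 Slc12a1 per 10000. Since this split used segment genes, the levels that follow describe the nuclei and carry no test. In every one of the 7 libraries 291 genes were at least 2-fold higher in convoluted than in straight nuclei and 362 at least 2-fold lower.

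Several carriers were among the genes of the convoluted side. Slc7a7, a basolateral amino acid exchanger, averaged 1098 CPM in convoluted and 69.2 in straight nuclei, and its log2 ratio ran from 2.78 to 4.67 over the libraries. A further phosphate carrier Slc34a3 averaged 480 and 33.2 CPM, and Slc5a2 (SGLT2) averaged 484 and 55.5 CPM. The neutral amino acid carrier Slc6a19 averaged 433 and 40.3 CPM and the organic anion carrier Slc22a8 averaged 360 and 32.5 CPM. Thus each of these carriers was several-fold higher in convoluted nuclei in all 7 libraries.

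Other functions of the segment followed the same split. Maf, a transcription factor, averaged 159 CPM in convoluted and 10.7 in straight nuclei, and Cyp24a1, which breaks down active vitamin D, averaged 52.0 and 5.70 CPM. Nox4, an NADPH oxidase of the kidney, averaged 1026 and 79.5 CPM. Pck1, the key enzyme of gluconeogenesis, had a narrower ratio, 890 and 320 CPM. The endocytic receptor Lrp2 (megalin) averaged 4433 and 4841 CPM, with a log2 ratio from -0.29 to 0.07, and Hnf4a averaged 1761 and 1978 CPM, and neither was higher on the same side in all 7 libraries.

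Lower in convoluted than in straight nuclei were the carriers Slco1a6 (748 and 7977 CPM) and Slc5a10 (765 and 5451 CPM), the brush border peptidase Mep1b (78.8 and 813 CPM) and the heavy chain Slc3a1 (768 and 3774 CPM), all in 7 of 7 libraries. Slc7a13 itself, limited by the rule, averaged 255 and 6012 CPM. Brush border enzymes as a list were mostly on the straight side, with 1 of 11 tested members higher in convoluted nuclei.

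Between the groups, 38 of 10157 genes tested in convoluted nuclei passed an adjusted p of 0.05 (edgeR quasi-likelihood test on counts summed per library, 0.374% of the genes tested), 17 higher (0.167%) and 21 lower (0.207%) in the 1-kidney libraries. All 38 had no overlap between the 3 and the 4 libraries, as did 18.1% of all genes tested. Adjusted p-values lay between 0.0390 and 0.0495, and 2430 genes (23.9%) had an unadjusted p under 0.05. The median log2 fold of all genes was -0.0054.

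The calls were close to the threshold. Without 1-kidney replicate 1, 2 or 3, or without 2-kidney replicate 3 or 4, 0 genes passed in edgeR (1393, 1644, 1859, 1387 and 1653 genes had an unadjusted p under 0.05), while 1515 passed without 2-kidney replicate 1 and 310 without replicate 2. DESeq2 called 407 genes on all 7 libraries. Without set P1117B 42 genes passed (0.416%, with 0.129% higher and 0.287% lower), of which 19 were among the 38, and all 38 kept their direction. The 38 were chosen with these same libraries, so the kept direction is a description.

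Among the higher genes, Slco1a6, an organic anion carrier of the Oatp family, had 1391, 1279 and 911 CPM in the 1-kidney replicates and 498, 584, 262 and 313 CPM in the 2-kidney replicates. The lowest 1-kidney library lay well above the highest 2-kidney library. The log2 fold was 1.53 ± 0.27 (SE, adjusted p = 0.0492, edgeR). Slc21a4, a further organic anion carrier of the same family (Slco1a3 in RefSeq), had 304, 298 and 288 CPM beside 161, 140, 109 and 115 CPM, a log2 fold of 1.19 ± 0.17 (SE, adjusted p = 0.0390, edgeR). The Oatp genes are close copies of each other, so how the counting split reads between them is uncertain, and their levels in other nuclei are given below.

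The promoter of Slco1a6 is shown because it holds, as few promoters of changed genes did, the core motif of Hnf4a (AAAGTCC on either strand, in capitals). It lies at chr4:176839033-176839282 of the RefSeq build GRCr8, minus strand, the 250 bases that end at the gene's start.
Slco1a6: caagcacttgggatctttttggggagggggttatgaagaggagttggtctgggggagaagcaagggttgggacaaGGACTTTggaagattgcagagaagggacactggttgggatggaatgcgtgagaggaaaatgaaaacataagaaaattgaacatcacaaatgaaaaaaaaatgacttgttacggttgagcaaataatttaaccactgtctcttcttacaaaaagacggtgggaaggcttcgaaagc
The motif starts 175 bases before the gene's start. Among 33469 RefSeq rat promoters of this length 3.99% held this core, and 2 of the 29 changed genes with a known promoter did, Ccdc88a and Slco1a6.

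Pdk4, the kinase that shuts off pyruvate dehydrogenase and so favours fat as fuel, had 35.2, 42.7 and 43.0 CPM in the 1-kidney and 12.3, 10.2, 2.21 and 12.1 CPM in the 2-kidney replicates. The groups were far apart, and 2-kidney replicate 3 was the lowest. The log2 fold was 2.24 ± 0.37 (SE, adjusted p = 0.0390, edgeR). Its promoter, at chr4:34568330-34568579 of GRCr8, minus strand, is shown because Pdk4 is a textbook target of the glucocorticoid receptor.
Pdk4: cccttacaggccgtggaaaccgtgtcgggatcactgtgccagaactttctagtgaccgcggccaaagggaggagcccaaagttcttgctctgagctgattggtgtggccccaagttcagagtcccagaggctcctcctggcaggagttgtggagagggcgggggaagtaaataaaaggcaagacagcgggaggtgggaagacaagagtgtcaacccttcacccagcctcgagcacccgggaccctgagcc
None of the 3 searched motifs, the Hnf4a core, the HNF1 hexamer GTTAAT and the glucocorticoid hexamer AGAACA, is in these 250 bases on either strand. The glucocorticoid hexamer was in 17.5% of all promoters and in 3 of the 29 (Dhrs7l1, Cit and Pkd1l1), and the HNF1 hexamer was in 6.45% of all and in 1 of the 29 (Cit).

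Dhrs7l1, a short-chain dehydrogenase with close copies in the genome, had 264, 263 and 233 CPM in the 1-kidney and 61.6, 134, 66.4 and 100 CPM in the 2-kidney replicates, a log2 fold of 1.47 ± 0.23 (SE, adjusted p = 0.0390, edgeR). Ahnak, a very large scaffold protein, had 182, 156 and 136 CPM beside 73.9, 64.7, 37.2 and 25.4 CPM, and Ccdc88a (girdin, an actin-binding regulator of G proteins) had 114, 108 and 102 CPM beside 59.1, 47.7, 26.5 and 34.0 CPM. In both, the 2 libraries of set P1117B were the lowest. Their log2 folds were 1.70 ± 0.29 and 1.42 ± 0.23 (SE). Rab31, an endosomal GTPase, Galnt13, which starts mucin-type sugar chains, and Prtfdc1, a relative of the purine salvage enzyme Hprt1, rose by log2 folds of 1.08, 1.33 and 1.76, from 2-kidney means of 19.4, 13.7 and 11.1 CPM.

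Among the lower genes, Slc43a2, a basolateral carrier that lets neutral amino acids out of the cell, had 144, 146 and 156 CPM in the 1-kidney and 398, 254, 401 and 418 CPM in the 2-kidney replicates. The groups did not overlap, and 2-kidney replicate 2 was the lowest of its group. The log2 fold was -1.30 ± 0.20 (SE, adjusted p = 0.0390, edgeR). Ntf3, the growth factor neurotrophin 3, had 211, 286 and 232 CPM beside 971, 471, 794 and 620 CPM, a log2 fold of -1.55 ± 0.25 (SE, adjusted p = 0.0390, edgeR).

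The promoter of Slc43a2, shown for comparison as that of a carrier that fell, is at chr10:60874588-60874837 of GRCr8, plus strand, and held none of the 3 motifs.
Slc43a2: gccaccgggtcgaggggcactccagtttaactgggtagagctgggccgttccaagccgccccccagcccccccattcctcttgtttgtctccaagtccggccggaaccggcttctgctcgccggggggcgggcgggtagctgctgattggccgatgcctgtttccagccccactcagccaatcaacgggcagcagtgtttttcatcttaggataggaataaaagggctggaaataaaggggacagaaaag
Of the 17 lower genes with a promoter in the table, 0 held any of the 3 motifs.

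Tinag, a protein of the tubular basement membrane, had 104, 129 and 111 CPM in the 1-kidney and 278, 190, 319 and 291 CPM in the 2-kidney replicates (log2 fold -1.23 ± 0.20 SE, adjusted p = 0.0390, edgeR). Xpr1, the phosphate exporter, had 108, 128 and 125 CPM beside 227, 195, 291 and 329 CPM (log2 fold -1.11 ± 0.20 SE, adjusted p = 0.0492, edgeR). In both genes the groups were apart, and in Xpr1 set P1117B was the highest. Without that set Xpr1 did not pass (log2 fold -0.79, edgeR adjusted p = 0.0526), and with the set as a term it did (edgeR adjusted p = 0.0435).

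Further lower genes were Slco2a1, the prostaglandin carrier (71.6 ± 11.3 beside 141 ± 11.9 CPM, SD, n = 3 and 4), and Kcnj12, an inward rectifier potassium channel (80.2 ± 18.3 beside 168 ± 15.7 CPM). Epha7, an ephrin receptor, was at 41.3 ± 4.48 beside 98.5 ± 20.6 CPM and Hsd17b2, which inactivates estradiol and testosterone, at 15.8 ± 1.21 beside 41.1 ± 8.49 CPM. Abtb2, Oaf and Tmem125 fell by log2 folds of -1.49, -1.19 and -1.11. Of the 20 genes named by p, 15 also passed without set P1117B, and Prtfdc1, Galnt13, Tmem125, Hsd17b2 and Kcnj12 did not.

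**Figure D2:**
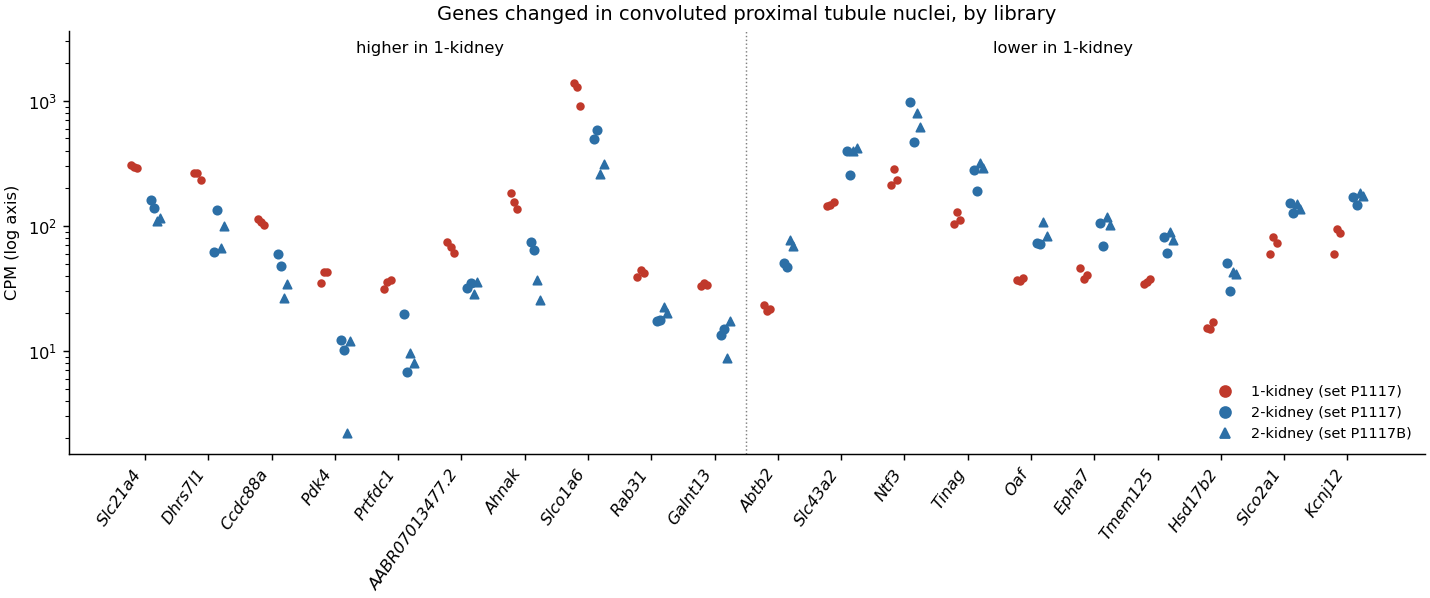
CPM (log axis) of the 10 genes of smallest p in each direction, in convoluted nuclei; each point is 1 library. For every gene the 3 red points lie apart from the 4 blue ones, and Pdk4 has the lowest single value, 2.21 CPM in 2-kidney replicate 3.

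Of the 17 higher genes 9 were more abundant in straight than in convoluted nuclei (8 of them in all 7 libraries), and of the 21 lower genes 18 were more abundant in convoluted nuclei (11 of them in all 7). Over all genes tested 59.4% were more abundant in convoluted nuclei. In the other nuclei 14 of the 17 and 21 of the 21 had the same direction, with median log2 folds of 0.66 and -0.66. Over all genes 7709 of 10150 did. As given above, the other nuclei are not of other cell types alone.

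Levels of 6 changed genes were set beside those in nuclei of other types. Slco1a6 was at 923 to 1391 unscaled CPM (without the factors between libraries) in convoluted nuclei of the 1-kidney and 253 to 550 of the 2-kidney libraries. In thick ascending limb nuclei it was at 1084 to 1387 and 453 to 1024, and in podocyte nuclei at 130 to 422 and 178 to 314. In straight nuclei it was at 8459 to 11020 and 5503 to 7887, without overlap. Thick limb nuclei and podocytes are not known to make this carrier. In 1-kidney libraries its level in convoluted nuclei overlapped with that in thick limb nuclei and lay above that in podocytes, and the 1-kidney libraries were the higher ones in thick limb and straight nuclei too.

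Ranges also overlapped with or lay below those of thick limb nuclei, and in 1-kidney libraries lay above those of podocytes, for Slc21a4, at 292 to 304 and 105 to 164 unscaled CPM in convoluted nuclei beside 183 to 375 and 169 to 213 in thick limb nuclei, and for Dhrs7l1, at 236 to 268 and 62.7 to 126 beside 253 to 321 and 103 to 251. Pdk4 was at 35.2 to 43.6 and 2.14 to 12.5 in convoluted nuclei and at 41.0 to 74.5 and 10.6 to 29.6 in thick limb nuclei, with the 1-kidney libraries higher in both. Slc43a2 was at 144 to 158 and 239 to 408 in convoluted, 93.2 to 148 and 130 to 275 in thick limb and 13.9 to 32.1 and 27.2 to 54.8 in straight nuclei. The part of free RNA in the group differences was not tested.

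**Figure D3:**
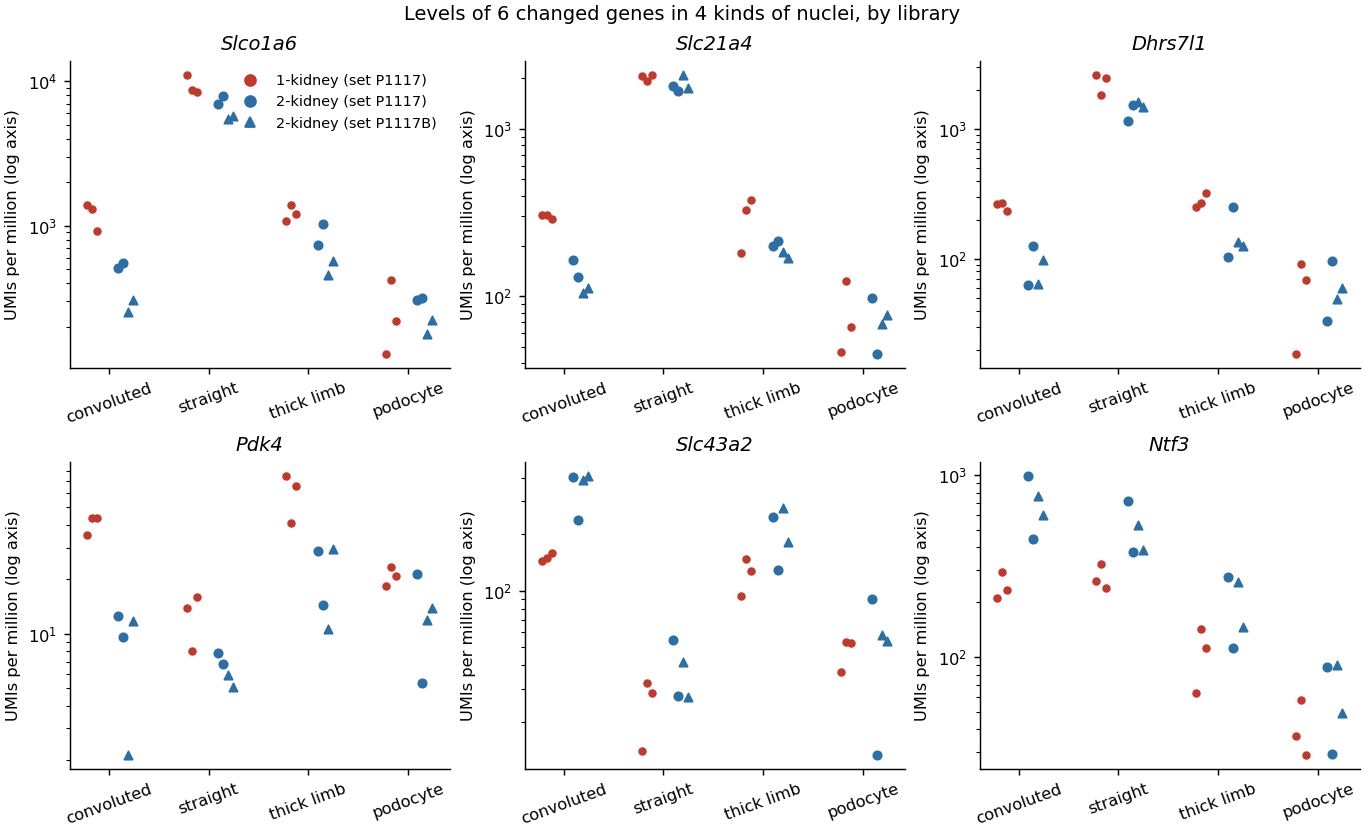
Unscaled CPM (log axis) of 6 changed genes in convoluted, straight, thick ascending limb and podocyte nuclei; each point is 1 library. Slco1a6, Slc21a4 and Dhrs7l1 are highest in straight nuclei, and Slc43a2 is higher in convoluted (144 to 408) than in straight nuclei (13.9 to 54.8) in every library.

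Lists of genes by function were described by their counts and medians beside all genes tested, of which 49.6% lay above 0. The lists were chosen with earlier results of these libraries known. The count filter can keep a rare gene through the group where it is high. Lists that lost many members to it can lean that way, such as heat shock and immediate early (16 of 23 tested) and cholesterol synthesis (19 of 24). Of phosphate and sodium genes 12 were tested, 1 fell (Xpr1) and the median log2 fold was -0.16. Slc34a3 was at 338 ± 45.2 CPM and 586 ± 137 CPM (1-kidney and 2-kidney, SD, n = 3 and 4) and did not pass (log2 fold -0.79 ± 0.20 SE, adjusted p = 0.0781, edgeR). Without set P1117B it passed, at a log2 fold of -0.998 (edgeR adjusted p = 0.0388), and it also passed with the set as a term (edgeR adjusted p = 0.0294). Of 14 bicarbonate and acid-base genes none passed and 2 had an unadjusted p under 0.05 upward and 3 downward. The exchanger Slc9a3, which secretes acid, was at 187 ± 47.5 and 278 ± 29.3 CPM (adjusted p = 0.118, edgeR).

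Amino acid carriers lay mostly below 0. Of 16 tested 12 were below 0, Slc43a2 fell, 9 had an unadjusted p under 0.05 downward and 2 upward, and the median log2 fold was -0.54. It was -0.32 without set P1117B. The aromatic amino acid carrier Slc16a10 was at 128 ± 14.6 and 275 ± 70.9 CPM (log2 fold -1.10 ± 0.22 SE, adjusted p = 0.0543, edgeR) and Slc7a8 was at 202 ± 13.8 and 452 ± 146 CPM. The heavy chain Slc3a1, which did not pass, was at 816 ± 102 and 732 ± 49.0 CPM.

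Glucose and fructose carriers gave 9 tested genes with 0 passing and a median log2 fold of -0.39. Slc5a2 was at 461 ± 78.3 and 501 ± 158 CPM, with overlapping groups (log2 fold -0.11 ± 0.23 SE, adjusted p = 0.795, edgeR). Of 10 carriers of lactate, dicarboxylates and sulfate 0 passed. Slc13a3 was at 447 ± 56.5 and 808 ± 227 CPM and the sulfate carrier Slc13a1 at 2447 ± 288 and 2544 ± 664 CPM. Organic anion and cation carriers split, with 8 of 16 above 0, Slco1a6 higher and a median log2 fold of -0.0072, and 0.063 without set P1117B.

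Endocytosis genes were close to 0, with 7 of 14 above it, 0 passing and a median log2 fold of -0.08. Megalin (Lrp2) was at 3967 ± 372 and 4783 ± 547 CPM and cubilin (Cubn) at 1094 ± 116 and 1047 ± 178 CPM. Legumain (Lgmn), the protease that degrades taken-up protein in lysosomes, was at 247 ± 10.98 and 391.9 ± 27.5 CPM without overlap and did not pass (adjusted p = 0.0610, edgeR). Of 13 water and paracellular genes 0 passed. Cldn10 was at 292 ± 81.7 and 645 ± 140 CPM (adjusted p = 0.0543, edgeR) and Aqp1, the water channel, at 43.4 ± 2.64 and 74.9 ± 16.7 CPM.

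Of metabolic lists, gluconeogenesis and fructose breakdown had 13 tested genes, 0 passing and a median log2 fold of -0.12. Pck1 was at 852 ± 188 and 918 ± 268 CPM, and Khk, which starts fructose breakdown, at 804 ± 37.6 and 501 ± 115 CPM without overlap (adjusted p = 0.0952, edgeR). In fatty acid oxidation 1 of 29 passed (Pdk4) and the median was -0.013, and 0.20 without set P1117B. Cholesterol synthesis genes lay mostly below 0, 16 of 19, with 0 passing and a median of -0.59, and -0.57 without set P1117B. Their median was -0.49 in straight and -0.31 in the other nuclei. By library, the list median relative to the 2-kidney mean was -0.40 in 2-kidney replicate 4, inside the 1-kidney range of -0.57 to -0.30. Of 21 respiratory chain genes 0 passed and the median was -0.14.

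Of the regulators, 22 transcription factors of the proximal tubule were tested and 0 passed. Rxra, the partner of many nuclear receptors, was at 57.8 ± 1.92 and 101 ± 17.7 CPM without overlap (adjusted p = 0.0571, edgeR). Of 9 genes of the vitamin D, PTH and FGF23 axis 8 were below 0, 0 passed and the median was -0.45. A gene put in this list by mistake had been removed after values were seen. Klotho (Kl), the FGF23 co-receptor, was at 325, 347 and 404 CPM in the 1-kidney and 600, 479, 790 and 587 CPM in the 2-kidney replicates (log2 fold -0.78 ± 0.20 SE, adjusted p = 0.0739, edgeR). Growth factor receptors and hypertrophy signalling genes had 22 of 28 below 0, 0 passing and a median of -0.34, which was -0.10 without set P1117B.

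Of 16 glucocorticoid response genes 12 were above 0, Pdk4 passed and the median log2 fold was 0.43. It was 0.35 in straight and 0.28 in the other nuclei. By library the groups overlapped, with list medians relative to the 2-kidney mean of 0.30 in 1-kidney replicate 2 and 0.33 in 2-kidney replicate 2. Tsc22d3 (GILZ) was at 35.2 ± 4.58 and 20.7 ± 3.09 CPM (adjusted p = 0.0900, edgeR). Of 16 heat shock and immediate early genes 13 were above 0 and 0 passed, with a median of 0.42 that was 0.20 without set P1117B. Among 22 genes of the unfolded protein response 15 were above 0, 0 passed and the median was 0.14. The medians of the heat shock and unfolded protein lists were 0.50 and 0.33 in straight and 0.21 and 0.30 in the other nuclei. Their list medians by library overlapped between the groups.

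Cell cycle genes had the highest median, 1.10 over the 14 of 24 that were counted often enough to be tested, 13 of them above 0 and 0 passing. The filter kept members that were high in 1 group, so the count is no support of its own, and without set P1117B the median was 0.35. Mki67, a marker of cycling cells, was at 128, 170 and 87.0 CPM in the 1-kidney and 67.8, 44.2, 14.6 and 25.96 CPM in the 2-kidney replicates (log2 fold 1.87 ± 0.38 SE, adjusted p = 0.0543, edgeR). Top2a was at 35.2, 53.1 and 43.0 beside 72.7, 15.7, 4.42 and 2.88 CPM, with 2-kidney replicate 1 the highest of all. The same filter kept 11 of 20 listed injury and repair genes, so their count and median are no support either. Of the 11, 7 were above 0 and 0 passed. Their median log2 fold was 0.50, 0.19 without set P1117B, and -0.18 in straight nuclei. The injury markers Havcr1 (KIM-1), with 0 to 5 UMIs per library, and Lcn2, with 0 or 1, were too rare to test. Cdkn1a (p21) was at 12.2 ± 2.43 and 4.02 ± 1.61 CPM (adjusted p = 0.0661, edgeR).

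**Figure D4:**
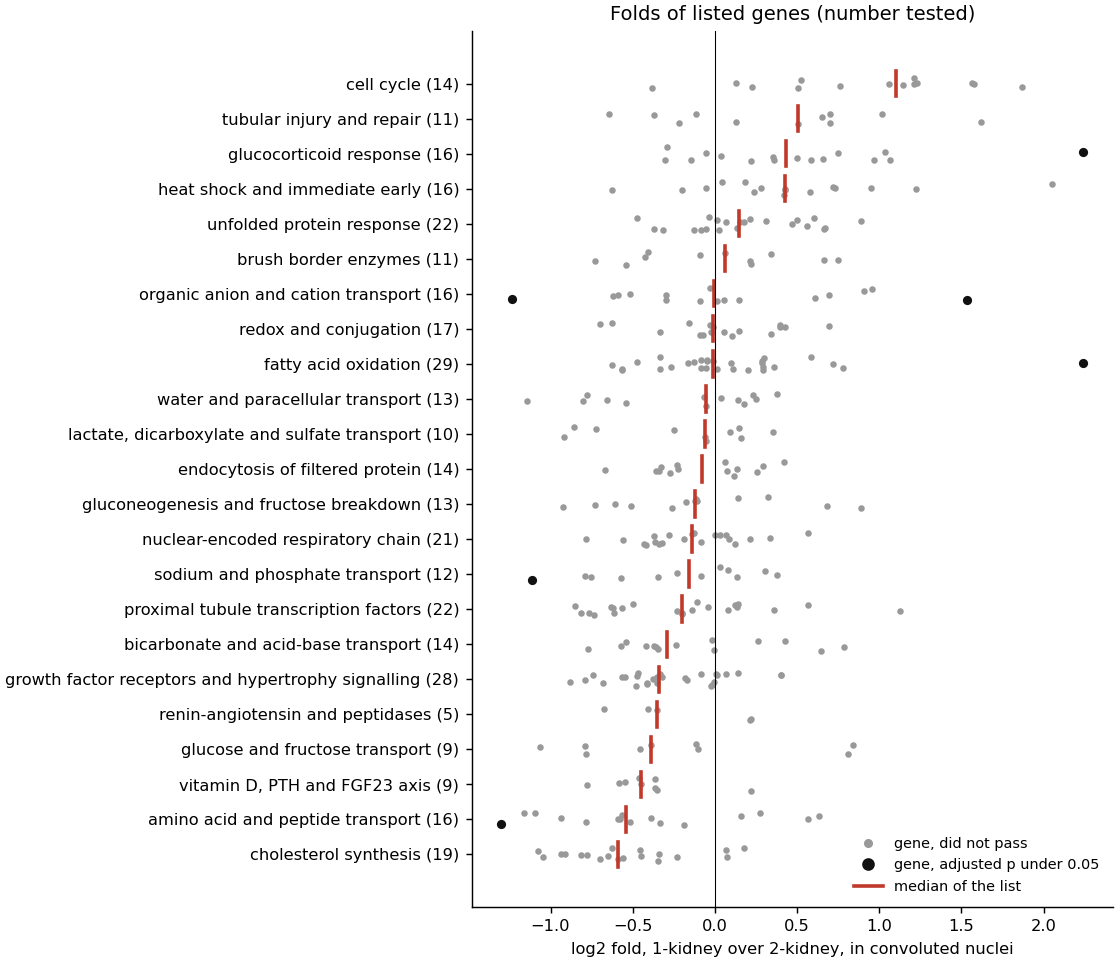
Log2 folds (1-kidney over 2-kidney) of the tested genes of each list in convoluted nuclei; grey points are genes that did not pass, black points passed, and red lines are list medians. Medians run from -0.59 (cholesterol synthesis) to 1.10 (cell cycle), and 1 gene, Pdk4, stands in 2 lists.

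The effect of the group was then compared between convoluted and straight nuclei of the same libraries. The difference of the effects passed for 87 of 10061 genes (edgeR interaction test with the library as a block, 0.865%), 53 with the higher effect in convoluted nuclei (0.527%) and 34 with the lower effect (0.338%). The count fell to 11 without set P1117B, to 10 with the set as a term and to 0 without 1-kidney replicate 2 (802 genes had an unadjusted p under 0.05), and it was 190 without 2-kidney replicate 1. The direction of the difference was the same for 87 of 87 genes in every alternative run. These runs reuse counts of the libraries that chose the genes, so a kept direction is no support of its own.

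Of the 87, 4 were genes of the rule or of the split. Of the other 51 with the higher effect in convoluted nuclei, 47 were more abundant in straight nuclei, and all 32 with the lower effect were more abundant in convoluted nuclei. The median log2 fold of the 51 was 0.86 in convoluted and -0.18 in straight nuclei, and that of the 32 was -0.62 and 0.31.

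In the first set Slco1a6 and Slc21a4 had differences of 1.06 ± 0.16 and 1.06 ± 0.17 (log2, SE, adjusted p = 0.00215 and 0.00311, edgeR). Aspg, an asparaginase, had 168, 212 and 150 CPM in convoluted nuclei of the 1-kidney and 75.2, 87.8, 28.8 and 27.7 CPM of the 2-kidney replicates, and 1545, 1228 and 1131 beside 1122, 1160, 669 and 596 CPM in straight nuclei. Its log2 fold was 1.74 in convoluted and 0.55 in straight nuclei (difference 1.28 ± 0.20 SE, adjusted p = 0.00215, edgeR). Osgin1, a growth regulator induced by oxidative stress, was at 233 ± 20.5 and 115 ± 53.6 CPM in convoluted and 1450 ± 180 and 1278 ± 458 CPM in straight nuclei.

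In the second set were carriers of the convoluted segment. Slc5a2 had 407, 551 and 425 CPM in convoluted nuclei of the 1-kidney and 732, 470, 391 and 410 CPM of the 2-kidney replicates, and in straight nuclei 58.6, 144 and 48.4 beside 82.6, 25.3, 14.8 and 14.1 CPM. Both pairs of groups overlapped, and the log2 folds were -0.11 and 1.49 (difference -1.60 ± 0.32 SE, adjusted p = 0.0107, edgeR). Slc7a7 had 744, 794 and 1023 beside 978, 1159, 1487 and 1502 CPM in convoluted nuclei and 62.2, 114 and 83.8 beside 37.4, 61.3, 65.5 and 59.5 CPM in straight nuclei (difference -1.23 ± 0.21 SE, adjusted p = 0.00562, edgeR). Slc6a19 (difference -1.54 ± 0.29 SE), Slc7a8 (-1.47 ± 0.28 SE), Kcnj12 (-1.29 ± 0.25 SE) and Prodh2, an enzyme of hydroxyproline breakdown (-0.95 ± 0.18 SE), had the same sign.

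Values of 2 kinds moved with this pattern. In convoluted nuclei the summed straight markers were higher in the 1-kidney libraries, as given above. Most of that sum is Slco1a6 (1194 and 414 CPM, 1-kidney and 2-kidney), Slc5a10 (1021 and 573) and Slc7a13 (334 and 196). Of its other members Slc22a7 was at 10.4 and 6.18 CPM, Cyp7b1 at 19.65 and 21.2 and Slc5a1 at 20.1 and 21.1. In straight nuclei Slc5a12, limited by the split, was at 127 ± 43.1 CPM in 1-kidney and 52.1 ± 9.11 CPM in 2-kidney libraries, and Slc4a4 at 371 ± 98.2 and 184 ± 11.5 CPM. Slco1a6, Slc5a10, Slc7a13, Slc5a12 and Slc4a4 are themselves among the 87 genes, so these values restate part of the pattern and are no separate support. The part of straight and convoluted transcripts as a whole in the differences was not tested. Without set P1117B the genes that passed both with and without it numbered 8, among them Slco1a6, Aspg, RGD1564053, Ccdc88a and Rimbp2.

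**Figure D5:**
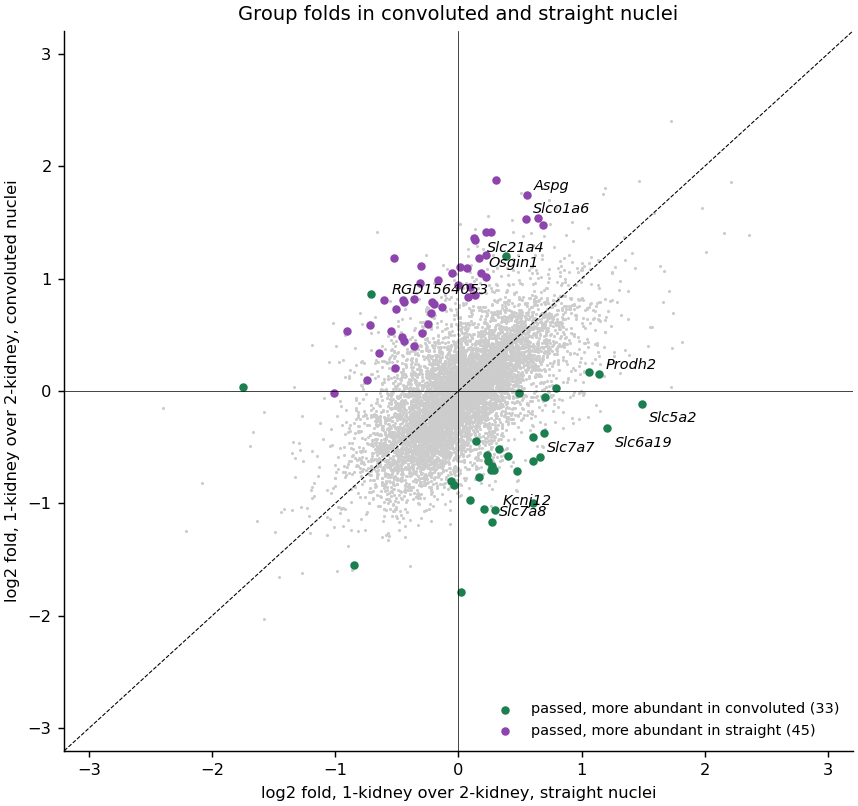
Log2 fold (1-kidney over 2-kidney) in straight nuclei (x) and convoluted nuclei (y) for 7670 genes tested in both (grey), with the 78 genes other than rule genes whose effect differed (coloured by the segment with the higher level). The 45 purple genes lie above the dashed line of equal folds and most of the 33 green ones below it.

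Among themselves the convoluted nuclei varied in the pair of the rule. They were split at 40 per 10000 of Slc5a12 and Slc4a4 together, a limit chosen after the data were seen, into 51 to 311 nuclei a library at or above it and 114 to 290 below. The 20 genes named by p had been chosen for their group difference in these same nuclei, so their ratios in the portions are a description. The ratio of the 1-kidney to the 2-kidney mean was 2.14 to 3.40 below the split and 1.84 to 5.94 above it for the 10 higher genes. For the 10 lower genes the ratios were 0.347 to 0.561 and 0.347 to 0.551.

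Within each library Slco1a6, Slc21a4, Dhrs7l1 and AABR07013477.2 were lower in the portion with more of the pair, in 7 of 7 libraries, and Slc43a2, Ntf3, Epha7 and Hsd17b2 were higher there in 7 of 7. For Slco1a6 the 1-kidney mean was 3.05 times the 2-kidney mean below the split and 3.23 times above it. For Slc43a2 the ratios were 0.394 and 0.434. No test of the difference between the portions was made.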

How the data were processed

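The authors deposited raw UMI counts, a gene by barcode matrix for each of 7 libraries. The submitters' processing notes name Cell Ranger 7.0, and the build and annotation used are not stated there. Per the labels, all libraries were sequenced as a single pool. Groups were taken from the sample titles, and replicate numbers follow accession order and pair nothing. The members and the gene lists were chosen with earlier results of these data known.

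Counts were summed over convoluted nuclei per library, since nuclei of 1 animal are not replicates, and tested with edgeR 4.0.16 in R 4.3.3 (TMM, filterByExpr, quasi-likelihood, two-sided, Benjamini-Hochberg over all genes tested). CPM use the TMM-scaled library sizes, and log2 folds are 1-kidney over 2-kidney. The difference between segments was fitted to convoluted and straight sums together, blocked by library. Single values per library were compared by exact permutation tests. Genes named are the 10 of smallest p in each direction, the rule genes and listed genes. Genes named outside these, among them Slc3a1 and Top2a, were chosen after their values were seen. Some genes are not reported here. Free RNA was not subtracted. No doublet caller was run: the upper limit of 10000 UMIs and the limits on Slc7a13 and Slc12a1 remove some doublets, and an alternative dropped the 6% of nuclei highest in markers of other cell types. On simulated counts for the member test 48% of 2-fold and 95% of 4-fold changes were recovered (9979 genes, 3 false calls). For the segment difference 39% and 79% were recovered (9702 genes, 5 false calls). The simulation for the segment difference gave convoluted and straight sums the same mean per gene and no library effect. Both simulations left out any effect of the library set and drew each gene on its own. The rates and false calls of both therefore need not hold for the real data. Promoters are RefSeq, GRCr8, 250 bases, and 29 of the 38 changed genes matched by symbol. Alternatives covered thresholds, depth, denominators, normalization, filters, DESeq2 1.42.0, the set code and each library left out.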

Additional observations from a re-analysis of the deposited data

Results flagged for a closer look

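Of 91 results examined for a single library far from the rest of the 2-kidney group, 5 exceeded Dixon's critical value of 0.829 for 4 samples (gap over range), and chance flags about 1 in 20. Genes per 1000 UMIs had a gap of 0.9333, with replicate 2 at 695. Slc43a2 had a gap of 0.8766, with replicate 2 low at 254 CPM. Gaps were 0.9325 for Anpep, a brush border peptidase, 0.8872 for Gpx3, a secreted glutathione peroxidase, and 0.8479 for Ect2, a cytokinesis gene.

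The effect of the group differed between convoluted and straight nuclei by the edgeR interaction test. Log2 differences above 0 were 1.332 for AABR07058656.1, 1.059 for Slco1a6, 1.432 for RGD1564053, 1.282 for Aspg, 1.064 for Slc21a4, 1.498 for Sorcs1, 1.732 for RGD1305807, 1.143 for AABR07013477.2, 0.9386 for Osgin1 and 1.104 for Fndc1. Those below 0 were -1.226 for Slc7a7, -0.9545 for Prodh2, -1.473 for Slc7a8, -1.539 for Slc6a19, -1.288 for Kcnj12, -1.598 for Slc5a2, -0.9978 for Bnc2 and -1.034 for Rimbp2. Without set P1117B, Slco1a6, RGD1564053, Aspg and Rimbp2 of these passed.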

How the results depend on the processing

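No paired analysis was possible because replicate numbers only follow accession order. The difference in share (8.17 points) was 1.12 with Slc34a1-high nuclei and 3.46 with all barcodes as denominator. It was 6.12 under stricter thresholds, 5.83 thinned to 1000 UMIs and 13.2 from 2000 UMIs up. Without set P1117B it was 8.91, and leaving out each library gave 5.35 to 10.8. The 38 changed genes became 407 with DESeq2, 18 with RLE factors, 17 from 2000 UMIs up, 1058 with no filter, 87 without nuclei high in other markers and 0 to 1515 leaving out each library. The 87 genes that differed between segments became 10 with the set as a term, 164 with no filter, 43 with straight nuclei from 20 Slc7a13 up, 17 under stricter thresholds, 11 without set P1117B and 0 to 190 leaving out each library. The 653 genes at least 2-fold apart between segments became 810 without set P1117B, an alternative chosen after seeing the data.

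Log2 folds that changed sign did not pass in any of these settings. With the set as a term they were -0.029 for Slc34a1, 0.18 for Slc4a4, 0.039 for Slc22a23 and -0.11 for Kdm5d. Without set P1117B they were -0.023, 0.19, 0.046 and -0.10 for the same genes. Under stricter thresholds they were 0.060 for Slc4a4, 0.081 for Slc13a1 and 0.025 for Pck1. Leaving out each library gave -0.13 to 0.050 for Slc4a4, -0.26 to 0.13 for Slc5a2, -0.20 to 0.078 for Slc13a1, -0.035 to 0.15 for Cubn, -0.30 to 0.10 for Pck1 and -0.018 to 0.29 for Eif2s3y. Over all alternatives, named genes kept direction and side of the threshold in 1021 of 1292 values, fell below it in 141, came past it in 107 and changed sign in 23. Some list medians changed sign too, such as that of fatty acid oxidation (-0.013, and 0.20 without set P1117B). The causes were not tested. Fewer libraries lower the power by construction.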
